A study of Caenorhabditis elegans with 2 samples.

Results

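The epidermal GATA factor genes elt-1, elt-3, egl-18 and elt-6 were examined for regions found by ChIP-seq of a related factor, ELT-4, in C. elegans late embryos. The genes were chosen by name, and regions were taken when their summit lay in the gene body or within 5000 bp of it. By this rule 27 of the 30000 regions listed for both replicates pooled belonged to the 4 genes, of 19973 protein-coding genes in all. The pooled list is labelled as peaks and background, so a region in it need not be a site bound by ELT-4. The lists called on replicate 1 and replicate 2 alone, also of 30000 regions each, held 33 and 32 such regions. Both samples were of 1 group, so there was no comparison between conditions. They came from hermaphrodite worms of strain OP111, of genotype unc-119(ed3) III with the integrated transgene wgIs111, which encodes ELT-4 carrying GFP and FLAG at its C terminus. Whole late embryos were collected 3 hours after synchronization by bleaching, and tagged protein was precipitated with an antibody against GFP, although the antibody field of the labels reads elt-4. The labels do not name the cells that express the transgene. The untagged elt-4 gene is not described as removed, and chromatin of all cells of the embryo was mixed. Sequencing depth is unknown, since the files used here hold no counts. They hold no expression values either, so whether these genes were active in the epidermis of these embryos cannot be checked here.

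GATA factors are zinc finger proteins that bind short DNA sites with GATA at their core. In C. elegans, ELT-1 specifies the epidermal fate in the early embryo. ELT-3 acts later in the differentiation of epidermal cells, and EGL-18 and ELT-6 act in the seam cells, the stem-like cells of the lateral epidermis. ELT-4 is a small member of the family whose gene lies beside elt-2, which encodes the main GATA factor of the intestine.

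The sequences below are the windows of 100 bp on each side of the pooled summit, read from the plus strand of the RefSeq genome of WBcel235, which is also the coding strand of all 4 genes. The windows of regions 7, 15, 22 and 25 are shown because they belong to the strongest pooled regions near egl-18, elt-6, elt-1 and elt-3. Capitals mark GATA, or TATC where the site is on the minus strand.
Region 7, chrIV:1906866-1907066, long intron of egl-18: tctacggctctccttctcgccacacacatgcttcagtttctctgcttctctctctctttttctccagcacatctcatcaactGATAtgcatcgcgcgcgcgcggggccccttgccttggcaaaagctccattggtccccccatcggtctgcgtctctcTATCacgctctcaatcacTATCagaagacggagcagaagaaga
Region 15, chrIV:1917910-1918110, summit in exon 1 of elt-6, with part of the gap to egl-18: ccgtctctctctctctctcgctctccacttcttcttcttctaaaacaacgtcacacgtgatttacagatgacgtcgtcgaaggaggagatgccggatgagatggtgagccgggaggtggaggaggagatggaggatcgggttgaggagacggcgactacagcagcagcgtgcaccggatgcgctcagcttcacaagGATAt
Region 22, chrIV:9617346-9617546, summit in an intron of elt-1, with the end of the exon before it: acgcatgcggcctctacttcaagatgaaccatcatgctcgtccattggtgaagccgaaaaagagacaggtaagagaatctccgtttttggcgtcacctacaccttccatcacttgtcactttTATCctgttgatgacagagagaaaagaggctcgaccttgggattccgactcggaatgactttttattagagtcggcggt
Region 25, chrX:13937817-13938017, intron of elt-3: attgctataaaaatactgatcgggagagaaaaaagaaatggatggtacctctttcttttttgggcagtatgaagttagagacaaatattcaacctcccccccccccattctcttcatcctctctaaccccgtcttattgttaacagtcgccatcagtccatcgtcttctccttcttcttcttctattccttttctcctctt

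The following windows are shown for their GATA sites, marked by capitals in the same way, and were chosen after the values had been seen. Region 21 held more GATA sites than any other window here, and regions 1 and 3 lay upstream of egl-18.
Region 1, chrIV:1899941-1900141: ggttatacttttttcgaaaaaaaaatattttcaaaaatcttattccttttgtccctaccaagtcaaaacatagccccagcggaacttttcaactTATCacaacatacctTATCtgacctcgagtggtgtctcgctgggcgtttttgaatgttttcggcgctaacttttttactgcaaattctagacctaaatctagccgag
Region 3, chrIV:1901082-1901282: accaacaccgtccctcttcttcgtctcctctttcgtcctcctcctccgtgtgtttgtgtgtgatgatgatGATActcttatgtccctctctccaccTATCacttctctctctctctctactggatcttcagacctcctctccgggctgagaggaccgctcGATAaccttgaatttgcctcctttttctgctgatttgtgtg
Region 21, chrIV:9615696-9615896: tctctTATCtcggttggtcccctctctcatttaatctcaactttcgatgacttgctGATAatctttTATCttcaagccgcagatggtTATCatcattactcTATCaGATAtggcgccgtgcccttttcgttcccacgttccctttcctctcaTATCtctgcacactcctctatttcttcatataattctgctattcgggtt

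The last pair of windows is shown for a tandem repeat and was picked out after the values had been seen. Here capitals mark TTAGGC, the unit of the C. elegans telomere repeat, or its complement GCCTAA.
Region 5, chrIV:1902981-1903181, long intron of egl-18: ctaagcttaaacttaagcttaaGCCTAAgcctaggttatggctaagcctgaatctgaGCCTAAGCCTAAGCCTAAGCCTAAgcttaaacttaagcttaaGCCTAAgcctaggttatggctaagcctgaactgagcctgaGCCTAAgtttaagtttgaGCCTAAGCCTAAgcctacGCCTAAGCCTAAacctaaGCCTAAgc
Region 17, chrIV:1920529-1920729, intron of elt-6: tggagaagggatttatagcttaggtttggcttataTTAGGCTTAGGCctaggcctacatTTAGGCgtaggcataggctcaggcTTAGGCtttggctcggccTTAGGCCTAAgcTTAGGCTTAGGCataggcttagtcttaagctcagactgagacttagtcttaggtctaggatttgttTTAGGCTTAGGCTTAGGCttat

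None of the 27 pooled regions passed a q-value of 0.05 and none was a peak of the authors' irreproducible discovery rate (IDR) filter. Over the whole pooled list 4.26% of regions passed that q-value and 1.14% were IDR peaks, and a count of 0 among 27 lies near that background. The signal, the value that the peak caller gave each region on a scale that is not stated, ran from 24.3 to 60.3 near the 4 genes, with a median of 34.3. The median over all pooled regions was 30.5. Ranks, counted from the highest signal, ran from 1453 to 23967, and 19 of the 27 regions lay in the stronger 15000 of the list. The lowest q-value was 0.0644, near egl-18.

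The genes fell in the order egl-18, elt-1, elt-6, elt-3 by the pooled signal of their strongest region, which was 60.3, 59.0, 54.3 and 34.3. The order of egl-18, elt-1 and elt-6 did not hold in the replicate lists. The matched signals at the strongest egl-18 region were 28.3 in replicate 1 and 34.8 in replicate 2, at the elt-1 region 25.4 and 30.7, and at the elt-6 region 34.1 and 31.2. The range at egl-18 overlapped those at elt-1 and elt-6, while both elt-6 values lay above both elt-1 values, the reverse of their pooled order. At the elt-3 region the values were 14.4 and 17.3, below both values of each of the other genes, although replicate 1 had another region near elt-3 at 26.5. Signals were not scaled between the lists, so an SD over the replicates includes any difference in scale. The windows of the genes held unequal numbers of regions, and the part of this in the order was not tested. With 1 group and 2 replicates no test was made.

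egl-18 and elt-6 lie head to tail on chromosome IV with 136 bp between them, at chrIV:1902322-1917840 and chrIV:1917977-1921643. Together they had 18 of the 27 pooled regions, of which 10 counted for both genes. The window of egl-18 held 0.705 regions per kb and that of elt-6 held 0.732. These densities were higher than those of 96.6% and 97.2% of protein-coding genes, whose median was 0.277. The windows share regions, so the densities are not independent of each other. Near elt-1 (chrIV:9614995-9620280) there were 5 regions, or 0.327 per kb, and near elt-3 (chrX:13934874-13941216) 4 regions, or 0.245 per kb, which lie closer to the median. This contrast depends on the flanks in each window. In the gene bodies alone there were 0.757 regions per kb in elt-1, 0.473 in elt-3, 0.644 in egl-18 and 1.09 in elt-6. The bodies of all protein-coding genes held 0.337 per kb, so all 4 lay above that value and elt-1 lay above egl-18.

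**Figure D1:**
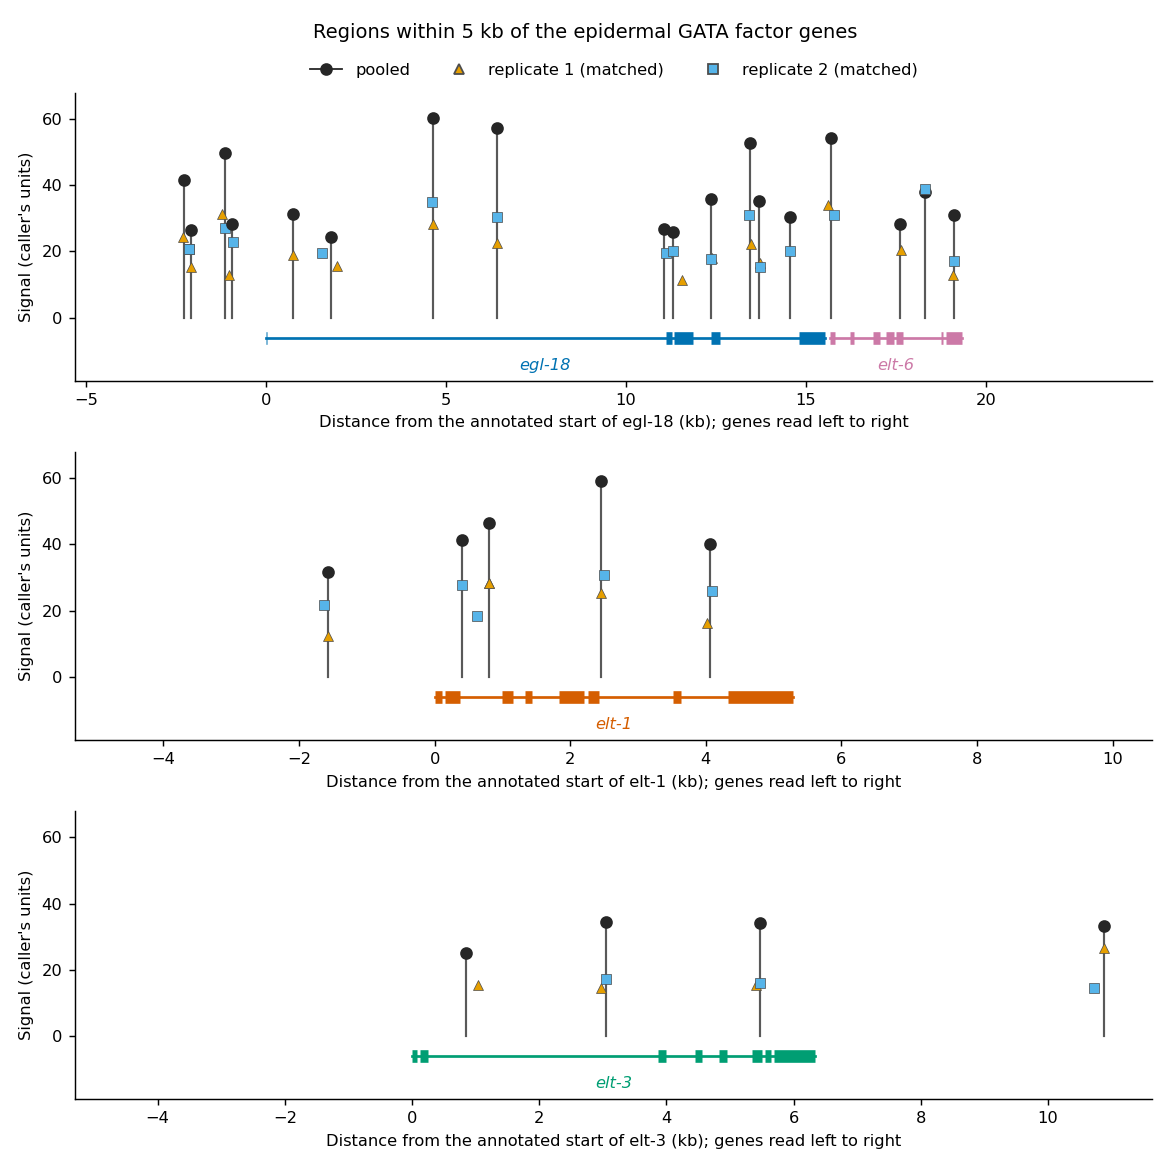
Signal of each pooled region (black, with a stem) against the distance of its summit from the annotated gene start, in kb, with the matched regions of replicate 1 (triangles) and replicate 2 (squares) at their own summits. Thick bars in the gene models under the points show exons. The egl-18 and elt-6 locus holds 18 regions, with the tallest at 60.3 in the long intron of egl-18, while no region near elt-3 exceeds 34.3.

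Most regions lay inside the genes. The bodies of the 4 genes held 21 regions, 0.681 per kb, and their flanks held 6, 0.199 per kb. Over all protein-coding genes the bodies held 0.337 regions per kb and the rest of the genome 0.236. By annotation 16 of the 27 summits (59.3%) lay in introns, against 27.9% of all pooled regions, 4 in coding sequence (14.8% against 38.7%), 6 in intergenic sequence and 1 in a UTR. Introns take up much of these genes, and the share of intron sequence in them was not set against other genes.

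In egl-18 the longest intron, of 11092 bp in transcript F55A8.1a.2 (chrIV:1902362-1913453), held 5 of these summits. The strongest was region 7 (chrIV:1906731-1907200), 4644 bp downstream of the first start site, with a pooled signal of 60.3 (rank 1453, q-value 0.0644). Its signal in the replicates was 31.6 ± 4.61 (mean ± SD, n = 2), at rank 2394 in replicate 1 and 1487 in replicate 2. Region 8 (chrIV:1908495-1908964), in the same intron, had a pooled signal of 57.4 (rank 1818, q-value 0.0927) and 26.5 ± 5.46 in the replicates, with ranks of 5746 and 2773. Both replicates thus placed regions 7 and 8 in the stronger part of their lists. Annotated non-coding RNA genes on the opposite strand reach into both windows, F55A8.3 (chrIV:1906974-1907171) at region 7 and F55A8.4 (chrIV:1908586-1908702) at region 8. The shorter transcripts of egl-18 start at the downstream end of this intron, and regions 9 and 10 lay 67 bp upstream and 181 bp downstream of the nearest of those starts. They were weak, with pooled ranks of 20021 and 21245.

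Upstream of egl-18 lay 2 pairs of overlapping regions. Region 3 (chrIV:1900947-1901416), 1140 bp from the start, had a pooled signal of 49.7 (rank 3311) and 29.2 ± 2.84 in the replicates (n = 2). It ranked 1502 in replicate 1, with a q-value of 0.0516, and 4337 in replicate 2. Its neighbour region 4 was weaker, at a pooled signal of 28.4. Region 1 (chrIV:1899806-1900275), 2281 bp from the start, had a pooled signal of 41.6 (rank 6215) and 22.5 ± 2.74 in the replicates. Its neighbour region 2 reached 26.5, and regions 1 and 2 were matched to the same region of replicate 2. The RNA gene F55A8.6 (chrIV:1900987-1901135), on the strand opposite to egl-18, reaches into the window of region 3. In the body of egl-18 beyond the long intron, the strongest region was region 12 (chrIV:1915526-1915995), in the last intron and 2216 bp upstream of the elt-6 start. Its pooled signal was 52.8 (rank 2587), with ranks of 6204 and 2518 in the replicates.

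At the start of elt-6, region 15 (chrIV:1917775-1918244) had its summit in the coding sequence of exon 1, 33 bp downstream of the start site. It spans the gap between the genes and is counted for both. Its pooled signal was 54.3 (rank 2316, q-value 0.116), and its replicate signals were 34.1 and 31.2, 32.6 ± 2.10 as mean ± SD. In replicate 1 it ranked 937 with a q-value of 0.0283, and in replicate 2 it ranked 2485 with a q-value of 0.180. The replicate 1 summit lay 69 bp upstream of the pooled one, in the gap before the start site. The replicate 2 summit lay 95 bp downstream of the pooled one, still in exon 1. Region 15 was the only region near the 4 genes past a q-value of 0.05 in replicate 1, where 4.87% of all regions passed. In replicate 2, where 3.01% of all regions passed, the only one was region 17 (chrIV:1920394-1920863), in intron 5 of elt-6, at a signal of 38.8, rank 830 and a q-value of 0.0464. Replicate 1 had no region overlapping it, and its pooled rank was 8456. No region near these genes therefore passed in both replicates.

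Regions 5 and 17 share the repeat shown above. The window of region 5 held 12 copies of TTAGGC on either strand and that of region 17 held 11, and of the other windows region 2 held 1 and the rest held 0. Of all 30000 pooled windows, 6.47% held at least 1 copy and 58 (0.193%) held at least 12. Each of these regions was found in 1 replicate only, region 5 in replicate 1 (signal 18.8, rank 10369) and region 17 in replicate 2. In the window of region 5, 51.8% of the 36-mers had a further copy elsewhere in the assembly or in the window, and in that of region 17 this was 0%. The only other window with over 5% repeated 36-mers was that of region 24, near elt-3, with 74.1%, and it too was found in replicate 1 only. Regions 9, 14 and 16 were also found in 1 replicate only, and their windows had 0% repeated 36-mers and 0 copies of TTAGGC. Of all pooled regions, 40.5% were found in 1 replicate only. Whether the repeats have a part in these replicate differences was not tested.

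In elt-1 the strongest region was region 22 (chrIV:9617211-9617680). Its summit lay in an intron at chrIV:9617414-9618504 (intron 6 of 7 in transcript W09C2.1a.1), 1449 bp downstream of the nearest start site. The pooled signal was 59.0 (rank 1608, q-value 0.0719), and the replicates gave 28.0 ± 3.75 (n = 2), at ranks 3812 and 2661. The window also reaches the piRNA gene 21ur-15550 (chrIV:9617512-9617532). Nearer to the start, regions 20 and 21 overlapped in an intron at chrIV:9615368-9615996. Region 21 had a pooled signal of 46.4 (rank 4261) and lay 194 bp upstream of an internal start site, and region 20 had 41.2 (rank 6427) and lay 244 bp downstream of a start site. Both were matched to the same region of replicate 1 (signal 28.4, rank 2362, q-value 0.0993), but in replicate 2 region 20 ranked 4033 and region 21 only 14693. The replicates thus placed the signal at different points of this intron. Region 23, in the last intron, had a pooled signal of 40.1, and region 19, 1564 bp upstream of the first start site, had 31.8. All 5 elt-1 regions overlapped a region in both replicate lists. In replicate 1, however, regions 20 and 21 shared their match, whose summit lay 397 bp from that of region 20.

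Of the 4 genes, elt-3 had the lowest signal at its strongest pooled region, while the median pooled signal of its regions, 33.7, was close to those of egl-18 (33.3) and elt-6 (33.1). That strongest region, region 25 (chrX:13937682-13938151), lay in a 3622 bp intron, 826 bp upstream of an internal start site, with a signal of 34.3 (rank 11080, q-value 0.550). The replicates gave 15.9 ± 2.03 (n = 2), at ranks 19778 and 17271. Region 26, in the coding sequence of an exon that all 6 transcripts share, had 34.1, and region 24, in the same intron as region 25, had 25.1. Region 27 (chrX:13945516-13945985) lay in intergenic sequence downstream of the gene, over the RNA genes annotated as K02B9.6 on both strands, and its nearest protein-coding start site was that of alg-1, an Argonaute gene of the microRNA pathway, 3359 bp away. It ranked 3189 in replicate 1 (signal 26.5) and 25042 in replicate 2 (signal 14.4). Of protein-coding genes, 66.4% had a stronger pooled region within 5000 bp than elt-3 had, against 16.1% for egl-18, 17.5% for elt-1 and 23.4% for elt-6. The shares do not allow for the number of regions per window, 18 for egl-18, 10 for elt-6, 5 for elt-1 and 4 for elt-3. The median over all protein-coding genes was 4, and the part of this number in the shares was not tested.

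**Figure D2:**
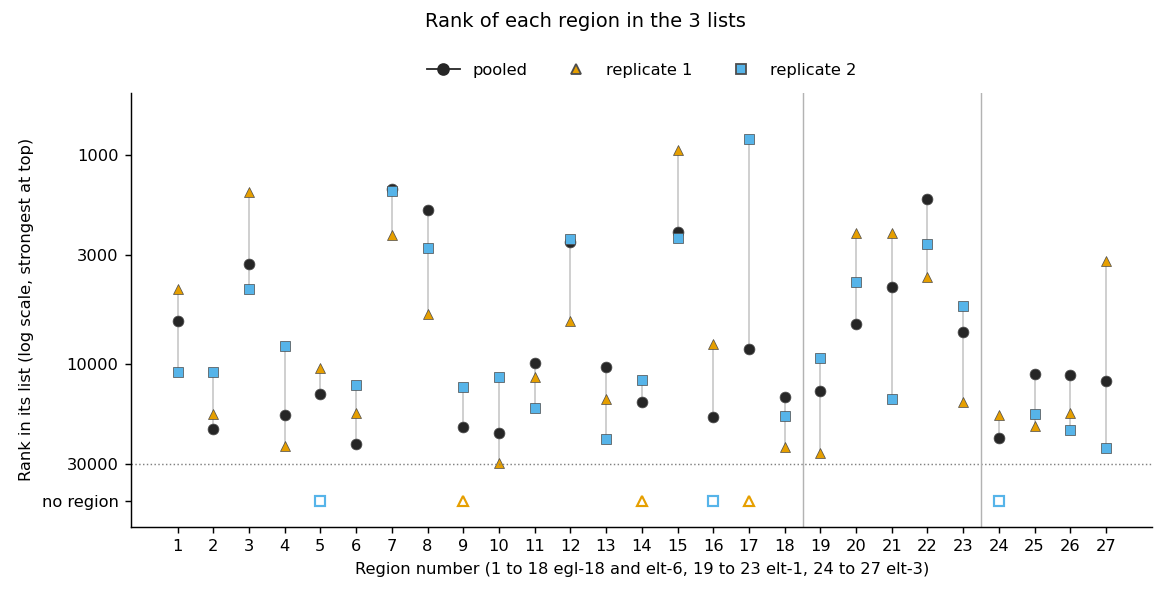
Rank of each of the 27 regions in the pooled list (circles), replicate 1 (triangles) and replicate 2 (squares), on a log scale with the strongest at the top and open symbols where a replicate list had no overlapping region. Regions 7 and 15 are the only ones ranked within the top 3000 by both replicates, and region 17 ranks 830 in replicate 2 with no region in replicate 1.

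Other, weaker regions of the egl-18 and elt-6 locus lay in the bodies of both genes. In the long intron of egl-18, region 6 had the lowest pooled signal of all 27, 24.3, with 15.5 in replicate 1 and 19.6 in replicate 2. Region 11, in exon 3 of transcript F55A8.1b.1 at bases that are intron in the other transcripts, had a pooled signal of 35.9. Its signals in replicates 1 and 2 were 18.1 and 17.8, at ranks of 11482 and 16133. Region 13, in the same intron as region 12, had 35.3, with 16.5 and 15.2. Region 14 in that intron (30.4) was found in replicate 2 only and region 16, in exon 5 of elt-6 (28.2), in replicate 1 only. Region 18, in the last exon of elt-6, had 31.0, with 12.8 and 17.1, and the closest annotated start was that of denn-4 at 2563 bp. By signals that were not scaled between the lists, replicate 1 was the higher at regions 11 and 13 and replicate 2 at regions 6 and 18. The summits matched to region 6 lay on opposite sides of its pooled summit, 157 bp away in replicate 1 and 242 bp away in replicate 2.

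The replicates shared most of these regions, at unequal rank. Of the 27 pooled regions, 21 (77.8%, exact Clopper-Pearson 95% interval 57.7 to 91.4) overlapped a region of both replicate lists, against 55.9% of all pooled regions. Among other pooled regions of the same range of signal the share was 61.6%, inside that interval. The remaining 6 were found in 1 replicate only, 3 in each. With a stricter match, summits within 100 bp in both replicates, 15 of the 27 regions remained (55.6%, 95% interval 35.3 to 74.5), against 29.1% of all pooled regions and 32.8% of those in the same range of signal. These intervals cover the counting of regions only, and regions at 1 locus are not independent. Over regions matched in a replicate, the median distance between the pooled and the replicate summit was 22.5 bp in replicate 1 and 30 bp in replicate 2. Conversely, of the regions near these genes in the replicate lists, 10 of 33 in replicate 1 and 6 of 32 in replicate 2 overlapped no pooled region. The strongest of these ranked 11748 in replicate 1 and 16321 in replicate 2. Only 2 regions, 7 and 15, ranked within the top 3000 in both replicates. The shares over all regions are not given here for this count or for the regions without pooled overlap. Whether these counts are unusual therefore cannot be read from them.

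The windows near these genes had a median GC content of 46.3%, from 34.8% to 56.2%, against a median of 43.3% over all pooled regions, whose quartiles were 38.3% and 48.3%. Region 6, in the long intron of egl-18, had the highest GC content, and region 18, in the UTR of the last exon of elt-6, the lowest. In introns the median was 46.0% near these genes and 41.8% over all pooled regions, in intergenic sequence 47.0% and 42.3%, and in coding sequence 49.5% and 44.8%. The strong regions 7, 8, 12 and 15 had 53.7%, 54.7%, 51.2% and 55.2%, while region 22, the strongest at elt-1, had 47.3%. Weaker regions also reached such values. Regions 6, 24 and 27, with pooled signals of 24.3, 25.1 and 33.3, had 56.2%, 53.7% and 55.2%.

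GATA sites were counted as the hexamer AGATAA, the hexamer AGATAG, the hexamer TGATAA and the hexamer TGATAG on either strand, none of which contains another and all of which contain the core GATA. Only in region 14 did sites overlap, by 1 base. At least 1 such site lay within 100 bp of 12 of the 27 summits (44.4%, exact Clopper-Pearson 95% interval 25.5 to 64.7), against 29.3% of all pooled regions, which lies inside the interval. TGATAA alone lay in 6 windows (22.2%, interval 8.62 to 42.3), against 12.5%. The core GATA lay in 23 windows (85.2%, interval 66.3 to 95.8), against 65.8%, just outside the interval. These intervals cover the counting of windows only and are not a test. Windows at 1 locus are not independent, and 18 of the 27 lie at the egl-18 and elt-6 locus. Among other pooled regions within the GC quartiles of these windows, the shares were 26.2%, 9.59% and 64.0%. The 12 windows held 21 sites, 7 of AGATAA, 3 of AGATAG, 7 of TGATAA and 4 of TGATAG.

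Strong regions were found both with and without GATA sites. Of the strongest region near each gene, that of egl-18 held 2 sites, both TGATAG on the minus strand and centred 59.5 and 77.5 bp downstream of the summit, and those of elt-1, elt-6 and elt-3 held none. The median pooled signal was 32.6 over the 12 regions with a site and 35.9 over the 15 without, and 11 of the 12 and 10 of the 15 were found in both replicates. By place, a split read after the values had been seen, all 6 intergenic windows held a site, namely the 4 upstream of egl-18 and 1 each near elt-1 and elt-3, against 30.4% of all intergenic pooled regions. Of the 16 intron windows 4 held a site, against 29.1% of all intron regions. At region 3 a TGATAG on the minus strand was centred at -2.5 bp from the summit, and at region 1 a TGATAA lay at -4.5 bp and an AGATAA at 10.5 bp, both on the minus strand. Region 21 of elt-1 held 5 sites centred between -93.5 bp and 2.5 bp from the summit, 2 of TGATAA, 2 of AGATAA and 1 of TGATAG. No other window here held more than 2, and 13 of the 30000 pooled windows (0.0433%) held 5 or more. A match to these letters is not a measured binding site.

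**Figure D3:**
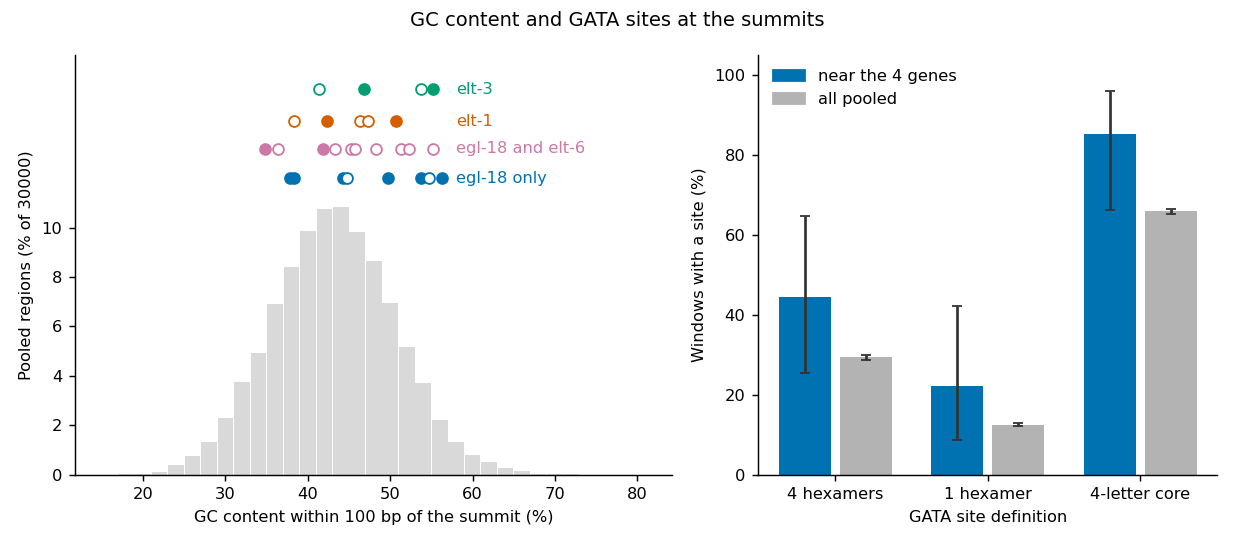
Left, GC content within 100 bp of the summit for all pooled regions (bars, % of 30000 regions) and for the 27 regions (points in 1 row per gene, whose height carries no value, filled where the window holds at least 1 of the 4 GATA hexamers). Right, percentage of windows with a site near the 4 genes and over all pooled regions, with exact 95% intervals, for the 4 hexamers, for TGATAA and for the core GATA; the values are 44.4% against 29.3%, 22.2% against 12.5% and 85.2% against 65.8%.

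Other genes of the epidermis and of the GATA family were set beside these genes at the same distance of 5000 bp. A pooled region of q-value 0.05 or less lay near 0 of the 4 genes and near 14.5% of all protein-coding genes. Of 7 endoderm GATA genes 1 had such a region, end-3, an endoderm specification gene, at rank 876. Of 14 epidermal regulators 4 (28.6%) did. These were blmp-1, a zinc finger repressor with a role in developmental timing (rank 317, q-value 0.0111), grh-1, the Grainyhead factor (rank 443), lin-26, a zinc finger gene needed for epidermal differentiation (rank 551), and bed-3, a zinc finger gene needed for molting (rank 1096). Of 16 epidermal structural, junction and fusion genes 6 (37.5%) did, and the 4 of highest signal were noah-2, a gene of the apical extracellular matrix (rank 330), rol-6, a cuticle collagen gene (rank 357), hmr-1, the cadherin gene (rank 366), and vab-10, a spectraplakin gene (rank 526). A region within 5000 bp may lie in a neighbouring gene. Among the genes just named, the strongest region lay outside the gene itself for end-3, lin-26, grh-1, bed-3 and hmr-1. The windows of these genes differ in length, and its part in these shares was not tested.

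**Figure D4:**
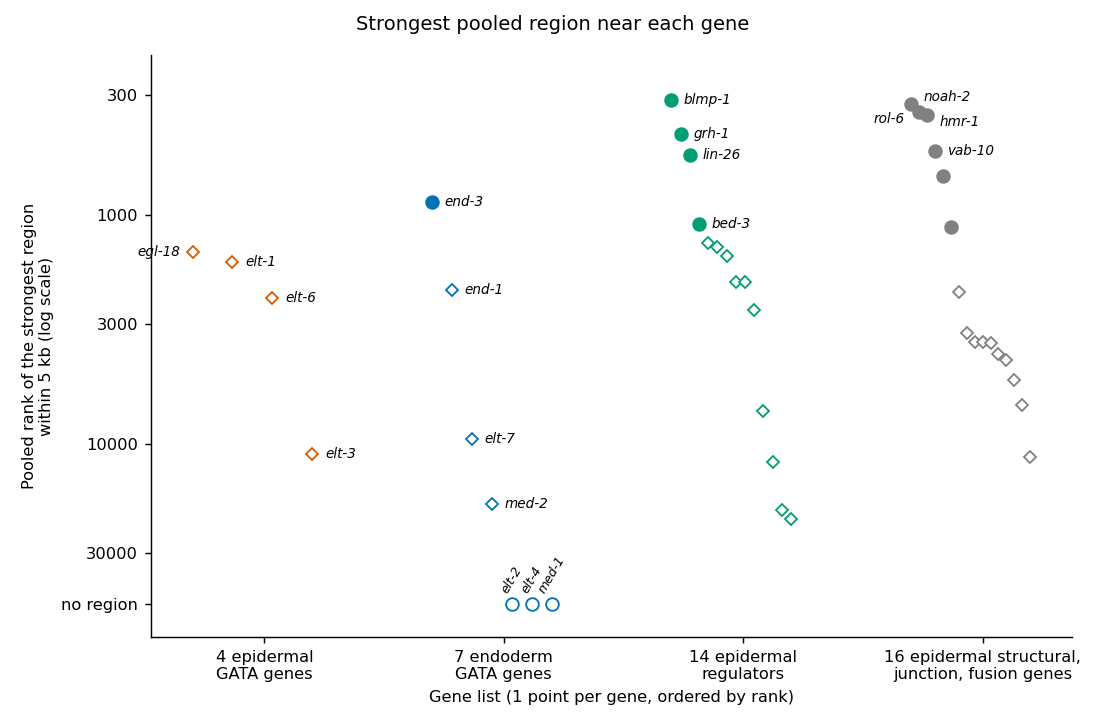
Rank in the pooled list (log scale, strongest at the top) of the strongest region within 5 kb of each gene, for the 4 epidermal GATA genes and 3 other lists. Filled circles mark genes with a pooled region of q-value 0.05 or less, diamonds genes with weaker regions only, and open circles genes with no region; egl-18 (1453), elt-1 (1608) and elt-6 (2316) lie above elt-3 (11080), and none is filled.

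The median rank of the strongest region was 1962 for the 4 genes, 1737 for the epidermal regulators, 3445 for the epidermal structural, junction and fusion genes and 5848 for the 4 of the 7 endoderm GATA genes that had a region. Over all protein-coding genes with a region it was 5904.5. The part that the number of regions per window has in these ranks was not tested. By the sum of absolute log10 rank differences over the pooled list and the replicate lists of the 2 samples, the most similar of 34 listed genes was lin-29, a zinc finger gene of developmental timing, for elt-1 (0.129), and eff-1, the cell fusion gene, for elt-3 (0.186). For egl-18 it was ajm-1, an apical junction gene (0.513), and for elt-6 tbx-9, a T-box gene (0.518). The strongest region was taken in each list alone, so the ranks of a gene can come from different regions. For egl-18 and elt-6 the replicate ranks were those of regions 15 and 17, whose pooled summits lie in elt-6. The replicate 1 rank for elt-1 was from the region matched to regions 20 and 21, not region 22. For elt-3 it was from region 27, in intergenic sequence, not region 25. The strongest pooled regions of lin-29, eff-1 and tbx-9 lay outside those genes. Being alike in rank says nothing of shared function.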

How the data were processed

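Regions from ChIP-seq of tagged ELT-4 were read from lists in narrowPeak layout on build ce11. They were deposited for 2 biological replicates and for both pooled, with 30000 regions each, and for the 342 IDR peaks. The pooled list of 30000 regions is labelled as peaks and background, the input for IDR. Per the notes deposited with the samples, regions were called against a control; the sources used here do not give the peak caller, the aligner or the read filters. Column 7 of the deposited lists holds the authors' signal value per region, on an unstated scale. Their column 9, as deposited, is the −log10 of the caller's q-value, and q-values were computed back from it. The depth of each library is unknown. Replicate lists were not rescaled. The lists on ce10 were not used here.

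Genes came from Ensembl release 115 on WBcel235, the assembly of ce11, and sequence from the RefSeq genome of the same assembly. A pooled region was matched to the replicate region sharing most bases, with at least 1 bp shared. GC content and motifs were read within 100 bp of the summit (201 bp). Intervals are exact Clopper-Pearson 95% intervals (scipy 1.17.1, Python 3.11.15) and cover counting only. The motif and window searches were tested on simulated data. No test across conditions was possible with 1 group. Alternatives were other distances, q-values, matches, motifs, windows and each replicate list alone. The named genes are the 4 members, genes at their summits, the listed genes with a pooled region of q-value 0.05 or less (at most 4 a list) and the listed gene most like each member. The members and lists were chosen with earlier results of these data known.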

Additional observations from a re-analysis of the deposited data

How the results depend on the processing

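Of 54 alternative values, 38 stayed within 1.5 times the count, the 95% interval or the spread of the replicate lists, and 16 did not. With a distance of 10000 bp there were 44 regions, and the strongest region near elt-6 was region 8, in the long intron of egl-18, at rank 1818. At a q-value of 0.1 or less 3 of the 27 regions passed in place of 0. The share of all pooled regions at that limit is not given here. At 0.05, 1 region passed in each replicate list alone (without replicate 2 or without replicate 1), against 4.87% and 3.01% of all regions. In those lists the median GC content was 44.8% to 46.3%, and the rank of the strongest region was 2362 to 2661 for elt-1. It was 830 to 937 for both egl-18 and elt-6, from the same regions, 15 in replicate 1 and 17 in replicate 2. Their pooled summits lie inside elt-6, and they count for egl-18 by distance. Region 7, in egl-18 itself, ranked 2394 and 1487. The rank for elt-3 ran from 3189 to 17271, so that its limit, set by that spread, was wide. With summits within 100 bp, 55.6% of regions were found in both replicates. A GATA site lay in 22.2% of windows with TGATAA alone, in 85.2% with the core GATA and in 66.7% within 200 bp of the summit, where 50.8% of all pooled regions had one. These definitions are narrower or wider by construction. No paired analysis was possible because the samples form 1 group. Without read counts, a weak region cannot be told from a thinly sequenced one.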
